A study of Mus musculus with 16 samples.

Results

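The vacuolar-type H+-ATPase (V-ATPase) is a rotary proton pump of lysosomes, endosomes, the Golgi apparatus and synaptic vesicles. Its cytosolic V1 sector hydrolyzes ATP, and its membrane-embedded V0 sector carries the protons across the bilayer. In dopaminergic neurons, the proton gradient that the pump builds drives the loading of vesicles with dopamine and keeps lysosomes acidic. Within V0, a ring of proteolipid subunits (Atp6v0c and Atp6v0b) turns against an a subunit (Atp6v0a1, Atp6v0a2 or Tcirg1), Atp6v0d1 couples the ring to the central stalk of V1, and Atp6v0e or Atp6v0e2 is a small hydrophobic subunit beside the a subunit.

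The mRNAs of 8 V0 subunit genes were examined, out of 25006 genes in the count tables, by mapping each symbol to its Ensembl identifier. The complex was chosen by the lower count of Atp6v0c in mice lacking the mitochondrial calcium uniporter (MCU), and the question asked was whether the other V0 subunits were lower too. The values of Atp6v0c between genotypes are therefore given as a description with no test. All 8 genes passed the filter on low counts and were among the 12390 genes tested. The paralogs Atp6v0a4 and Atp6v0d2, which belong to kidney- and osteoclast-type pumps, were not tested, since Atp6v0a4 had 2 counts in 1 of the 16 libraries and Atp6v0d2 had none.

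The libraries held mRNA from dopaminergic neurons of the substantia nigra pars compacta (SNc), collected with the RiboTag method. A tagged ribosomal protein was expressed from a Cre-dependent adeno-associated virus (AAV), and the tagged ribosomes were pulled down with the mRNA on them. The control group was 8 mice of genotype DAT-Cre +/-, and the MCU-KO group was 8 mice of genotype DAT-Cre+/- MCU fl/fl, with 1 library per mouse. Both groups thus carried Cre under the control of the dopamine transporter gene and received the vector, and tissue was taken at postnatal day 45, which was 30 days after the injection. Cre acts in every cell that has expressed the dopamine transporter, including those outside the injected region. Control mice were bred from DAT-Cre and C57/BL6 mice and MCU-KO mice from a floxed line, so that breeding line and genotype cannot be told apart. The sex of the mice was not given in the sources used here.

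Library totals ranged from 18999107 to 22016362 counts in control mice and from 14129527 to 20582204 in MCU-KO mice, and levels are given as CPM, the count of a gene scaled to the size of its library after TMM normalization. The targeted gene, Mcu, ranged from 6.25 to 43.1 CPM in control mice, with a median of 20.8, and from 0.301 to 21.3 CPM in MCU-KO mice, with a median of 12.8. The groups overlapped, and the log2 fold change was −1.19 (standard error 0.59, unadjusted p = 0.0569 and adjusted p = 1.00, quasi-likelihood test of edgeR). Here and below, p was adjusted after Benjamini and Hochberg over all genes tested. Reads were counted over all exons of Mcu, so that this count does not measure the floxed part alone. The authors verified the knockout by quantitative PCR for Mcu in RiboTag mRNA and by imaging of calcium in mitochondria. The summed CPM of 13 markers of dopaminergic neurons ranged from 15116 to 19511 in control mice and from 12929 to 21705 in MCU-KO mice. Markers of other cells were also present, with ranges of 2729 to 5373 and 3201 to 6410 CPM for 7 oligodendrocyte genes, 330.0 to 686.8 and 463.9 to 912.3 for 7 astrocyte genes, and 49.8 to 154.3 and 58.2 to 271.6 for 8 microglial genes. The ranges for 3 endothelial genes were 7.20 to 35.0 and 4.76 to 21.7 CPM, and those for 3 genes of GABA neurons were 107.4 to 253.5 and 78.5 to 276.2 CPM. Every marker had a count in at least 1 library, 0 markers in the 6 lists passed the test (0.178% of all genes did), and the part of these cells in the values below was not tested. In such bulk samples, fewer cells of a type and less RNA per cell cannot be told apart.

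In the proteolipid ring, Atp6v0c was lower in MCU-KO mice and Atp6v0b was close to its control level. Atp6v0c (ENSMUSG00000024121) encodes the c subunit, which makes up most of the ring and binds the transported protons. It lies on the minus strand of chromosome 17 (24163866 to 24169702, GRCm38). In control mice 1 to 8, its level was 639.4, 730.7, 793.3, 802.3, 742.7, 819.8, 850.4 and 815.0 CPM. In MCU-KO mice 1 to 8, the level was 356.2, 338.8, 300.2, 302.4, 288.3, 252.1, 397.8 and 254.1 CPM. All 8 MCU-KO mice lay below all 8 control mice, and the lowest control mouse was 1.61 times as high as the highest MCU-KO mouse. The means were 774.2 ± 67.4 CPM (SD, n = 8) and 311.2 ± 50.4 CPM (SD, n = 8), a ratio of 0.402. The log2 fold change was −1.31 with a standard error of 0.10. It stayed between −1.37 and −1.27 when each mouse was left out in turn.

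**Figure D1:**
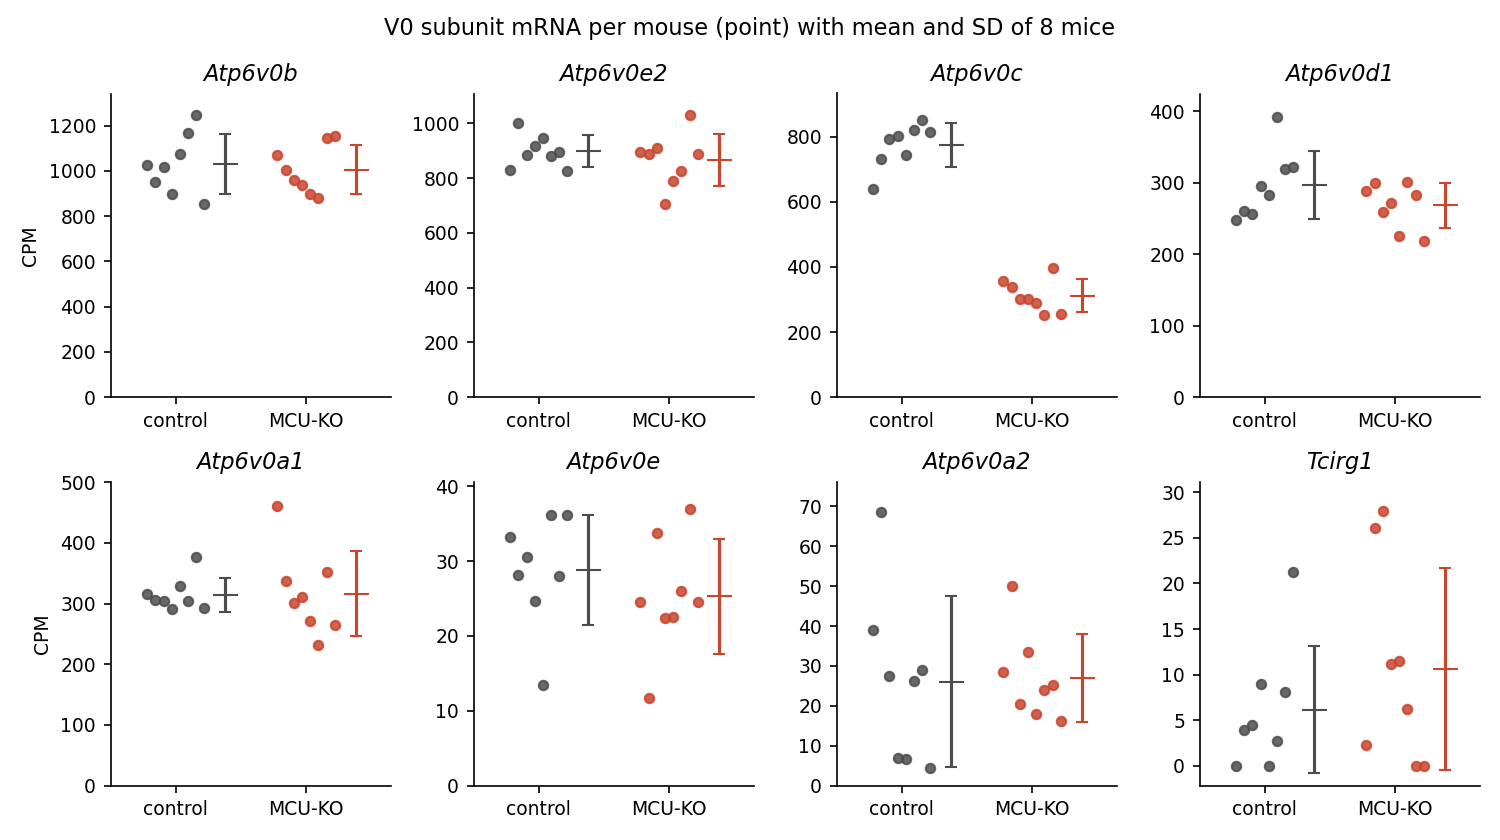
CPM of the 8 V0 subunit mRNAs in each of 8 control (grey) and 8 MCU-KO (red) mice, 1 point per mouse. The mean and SD of each genotype are drawn beside the points. Each panel has its own linear axis from 0, except that the axis of Tcirg1 starts below 0 to hold its SD bar. The MCU-KO points for Atp6v0c lie between 252.1 and 397.8 CPM, below all control points, whereas the genotypes overlap in the other 7 panels.

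Atp6v0b (ENSMUSG00000033379; chromosome 4, 117884326 to 117887333, minus strand) encodes the c'' subunit, a related proteolipid of the same ring. Its level ranged from 852.9 to 1247 CPM in control mice, with a median of 1023, and from 880.2 to 1153 CPM in MCU-KO mice, with a median of 981.2. The genotypes overlapped along most of their range. The means were 1029 ± 132.8 and 1006 ± 107.1 CPM (SD, n = 8 each), and the log2 fold change was −0.03 (95% confidence interval, CI, −0.21 to 0.15, adjusted p = 1.00, edgeR). The ratio of Atp6v0c to Atp6v0b within a mouse, in CPM, was 0.762 ± 0.114 (SD, n = 8) in control mice and 0.310 ± 0.0406 (SD, n = 8) in MCU-KO mice. The ratios ran from 0.622 to 0.956 and from 0.220 to 0.347, and since this contrast includes the gene that chose the complex it was not tested.

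**Figure D2:**
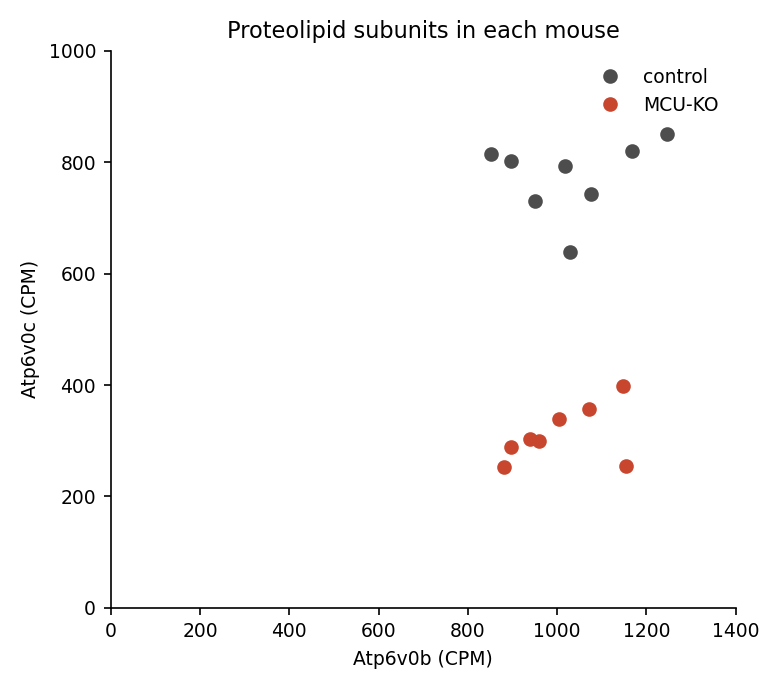
Atp6v0c (vertical axis, CPM) against Atp6v0b (horizontal axis, CPM), 1 point per mouse, 8 control mice in grey and 8 MCU-KO mice in red, both axes from 0. The genotypes share the same span of Atp6v0b, 852.9 to 1247 CPM in control and 880.2 to 1153 CPM in MCU-KO mice, and separate along Atp6v0c.

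The a subunits, which hold the proton channels beside the ring and set the membrane to which the pump goes, did not pass the test in either direction. Atp6v0a1 (ENSMUSG00000019302; chromosome 11, 101009452 to 101063719, plus strand) is the form found on synaptic vesicles and is abundant in neurons. It ranged from 291.4 to 377.2 CPM in control mice, with a median of 304.7, and from 231.3 to 460.5 CPM in MCU-KO mice, with a median of 306.2. The MCU-KO mice spread to both sides of the control mice, and the log2 fold change was 0.01 (95% CI −0.23 to 0.25, adjusted p = 1.00, edgeR). Atp6v0a2 (ENSMUSG00000038023; chromosome 5, 124628576 to 124724455, plus strand), the form of the Golgi apparatus and endosomes, ranged from 4.53 to 68.6 CPM in control mice, with a median of 26.9. In MCU-KO mice it ranged from 16.1 to 50.2 CPM, with a median of 24.6, inside the control range. Its log2 fold change was 0.05, with a wide 95% CI of −0.88 to 0.99 (adjusted p = 1.00, edgeR).

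Tcirg1 (ENSMUSG00000001750; chromosome 19, 3896050 to 3907133, minus strand) encodes the a3 subunit, best known from the ruffled border of osteoclasts. It was the least abundant member. It had 0 counts in 2 control and 2 MCU-KO mice, where 3 counts taken as the limit would be 0.135 to 0.214 CPM across the libraries. The other libraries brought the highest values to 21.3 CPM in control and 27.9 CPM in MCU-KO mice, with medians of 4.19 and 8.72 CPM. The groups overlapped fully, and the log2 fold change of 0.79 came with a 95% CI from −1.65 to 3.22 (adjusted p = 1.00, edgeR). A change of Tcirg1 of several fold in either direction was thus not detectable at this spread between libraries, from 0 to 582 counts.

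The remaining subunits also overlapped between genotypes. Atp6v0d1 (ENSMUSG00000013160; chromosome 8, 105524465 to 105566047, minus strand), the subunit between the ring and the stalk, ranged from 248.0 to 392.2 CPM in control mice (median 289.4) and from 219.0 to 301.7 CPM in MCU-KO mice (median 277.1). Of the MCU-KO mice, 6 of 8 lay below the control median. The log2 fold change was −0.15 (95% CI −0.36 to 0.07, unadjusted p = 0.180 and adjusted p = 1.00, edgeR), the smallest p among the tested members. Atp6v0e2 (ENSMUSG00000039347; chromosome 6, 48537615 to 48541801, plus strand), the e subunit form enriched in brain, ranged from 826.9 to 1003 CPM in control mice (median 889.4) and from 707.6 to 1031 CPM in MCU-KO mice (median 887.9). Its log2 fold change was −0.05 (95% CI −0.21 to 0.11, adjusted p = 1.00, edgeR). Atp6v0e (ENSMUSG00000015575; chromosome 17, 26663231 to 26699647, plus strand), the more widely expressed form, ranged from 13.5 to 36.1 CPM in control mice (median 29.4) and from 11.8 to 37.0 CPM in MCU-KO mice (median 24.5). Its log2 fold change was −0.19 (95% CI −0.75 to 0.37, adjusted p = 1.00, edgeR).

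Apart from Atp6v0c, 0 of 7 V0 subunits were called at an adjusted p under 0.05, beside 22 of the 12390 genes tested (0.178%). At an unadjusted p under 0.05 the counts were 0 of 7, beside 547 genes (4.41%), and 0 of 7 were called with DESeq2 or limma-voom. In 0 of the 7 genes were the CPM ranges of control and MCU-KO mice separate, beside 31 genes in the table (0.250%). With 7 genes, none called is also the count these shares would give, so the confidence intervals carry the comparison. For 4 of the 7 (Atp6v0b, Atp6v0e2, Atp6v0a1 and Atp6v0d1) the interval lay within 0.5 on the log2 scale on either side of 0, and for 6 of the 7 it lay within 1. As a description, only for Tcirg1 did the interval include −1.31, the log2 fold change of Atp6v0c. That value chose the complex and has its own error, which this comparison leaves out. The fold changes were below 0 in 4 and above 0 in 3 of the 7 genes, with a median of −0.03 beside 0.00 for all genes tested. The summed CPM of the 7 genes was 2600 ± 184.8 (SD, n = 8) in control mice and 2521 ± 233.8 (SD, n = 8) in MCU-KO mice, with ranges of 2356 to 2903 and 2234 to 2875 that overlapped.

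**Figure D3:**
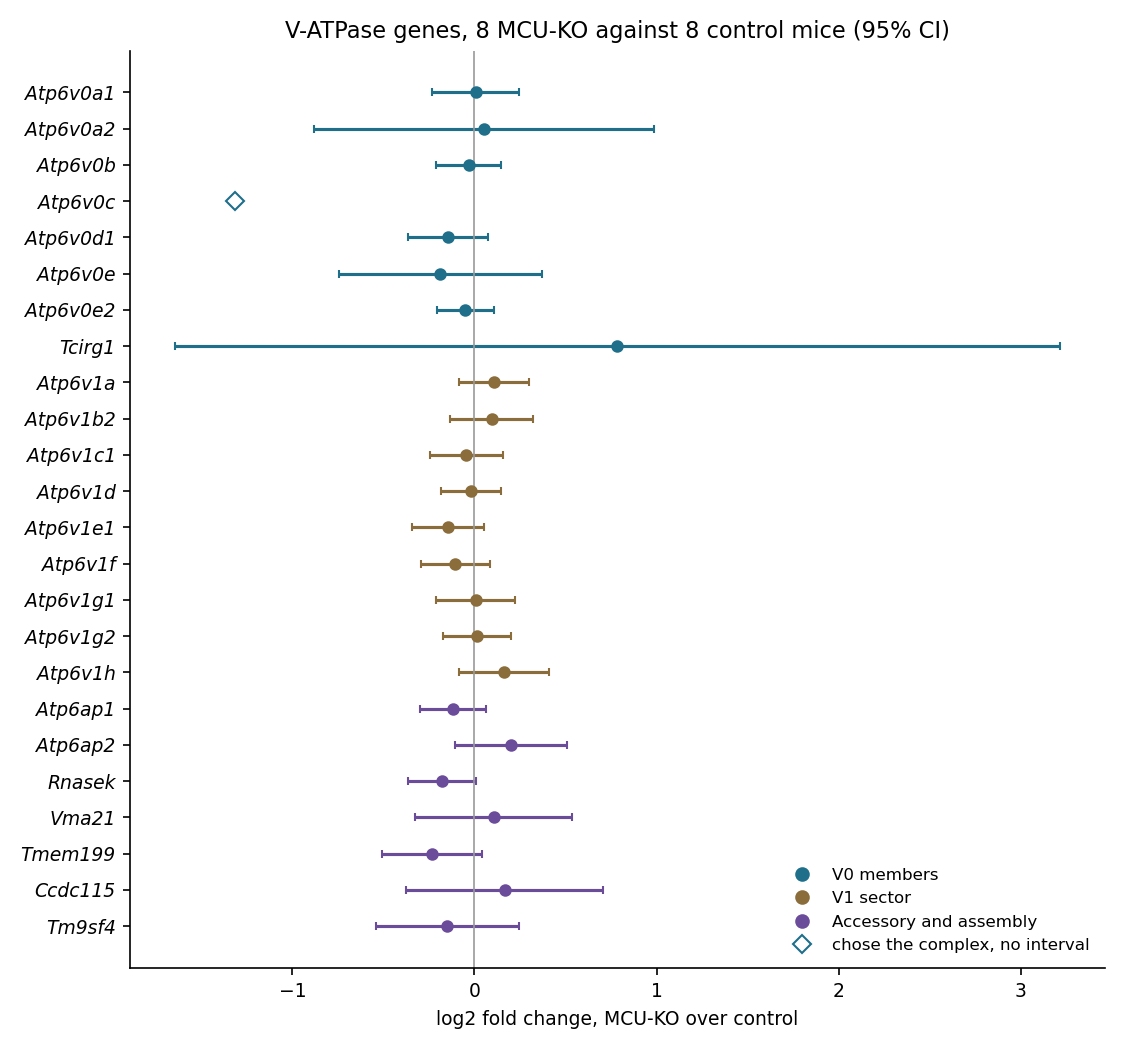
Log2 fold changes of MCU-KO over control (8 mice each) for the tested V0, V1 and accessory genes, with 95% confidence intervals from edgeR's quasi-likelihood fit; the open diamond is Atp6v0c, which chose the complex and is drawn without an interval. Atp6v0c sits at −1.31 and the other genes lie around 0, with the widest interval, −1.65 to 3.22, for Tcirg1.

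Levels of different genes were compared within the 8 control mice, per kb of the union of annotated exons. Atp6v0b was highest at 501.8 ± 64.8 CPM per kb (SD, n = 8), followed by Atp6v0e2 at 377.2 ± 24.7, Atp6v0c at 228.8 ± 19.9 and Atp6v0d1 at 165.7 ± 26.5. Atp6v0a1 followed at 48.0 ± 4.27 CPM per kb, Atp6v0e at 7.76 ± 1.99, Atp6v0a2 at 3.87 ± 3.18 and Tcirg1 at 1.34 ± 1.50. Neighbours in this order were compared within each mouse with an exact two-sided sign-flip permutation test, adjusted over 7 pairs. The order was set by the means of these same 8 mice, so the pairs and their direction came from the data tested. The smallest unadjusted p that this exact test can give with 8 mice is 0.00781, which the first 5 pairs reached. The higher gene was above the lower one in 8 of 8 mice for the first 5 pairs (adjusted p = 0.0109 each, exact test) and in 7 of 8 mice for Atp6v0e over Atp6v0a2 (adjusted p = 0.0182, exact test). Atp6v0a2 and Tcirg1 did not differ beyond their spread, with Atp6v0a2 higher in 6 of 8 mice (adjusted p = 0.0938, exact test). That pair passed the threshold without control mouse 8, the mouse with the highest Tcirg1 (adjusted p = 0.0313, exact test). Control mice 1 and 5 had 0 counts of Tcirg1, so the size of their ratios rests on the pseudocount of 1 count. These p-values reflect agreement among mice. They do not cover an error in the length or the counting of a gene that all mice share. The position of Atp6v0c rests on the length used, and the effect of sequence shared with its processed copies, described below, was not tested. Its union of exons is 3384 bases, but its longest protein-coding transcript is 1183 bases, and with that length Atp6v0c stood above Atp6v0e2, at 654.5 against 502.0 CPM per kb.

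In 2 pairs of alternative forms of a subunit, the levels differed by more than the spread between mice. Atp6v0a1 exceeded Atp6v0a2 per kb in 8 of 8 control mice, by 4.15 ± 1.38 on the log2 scale (SD, n = 8, p = 0.00781, exact sign-flip test, the smallest p that 8 mice can give). Atp6v0e2 exceeded Atp6v0e in 8 of 8 control mice by 5.65 ± 0.52 on the log2 scale (SD, n = 8, p = 0.00781, exact sign-flip test), a comparison that was added after the values were seen. In MCU-KO mice, the level per kb of Atp6v0c was 92.0 ± 14.9 CPM (SD, n = 8), below the 149.8 ± 17.7 of Atp6v0d1, whereas the other 7 genes stood in the same order by their means. That order of Atp6v0c and Atp6v0d1 turned with the length of the longest protein-coding transcript, at 263.1 against 164.9 CPM per kb. The share of Atp6v0c in the summed CPM per kb of the 8 genes was 17.2% ± 1.36 (SD, n = 8) in control mice and 7.92% ± 0.846 (SD, n = 8) in MCU-KO mice, given as a description. With the length of the longest protein-coding transcript, the shares were 26.6% ± 2.06 and 13.03% ± 1.35 (SD, n = 8 each).

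**Figure D4:**
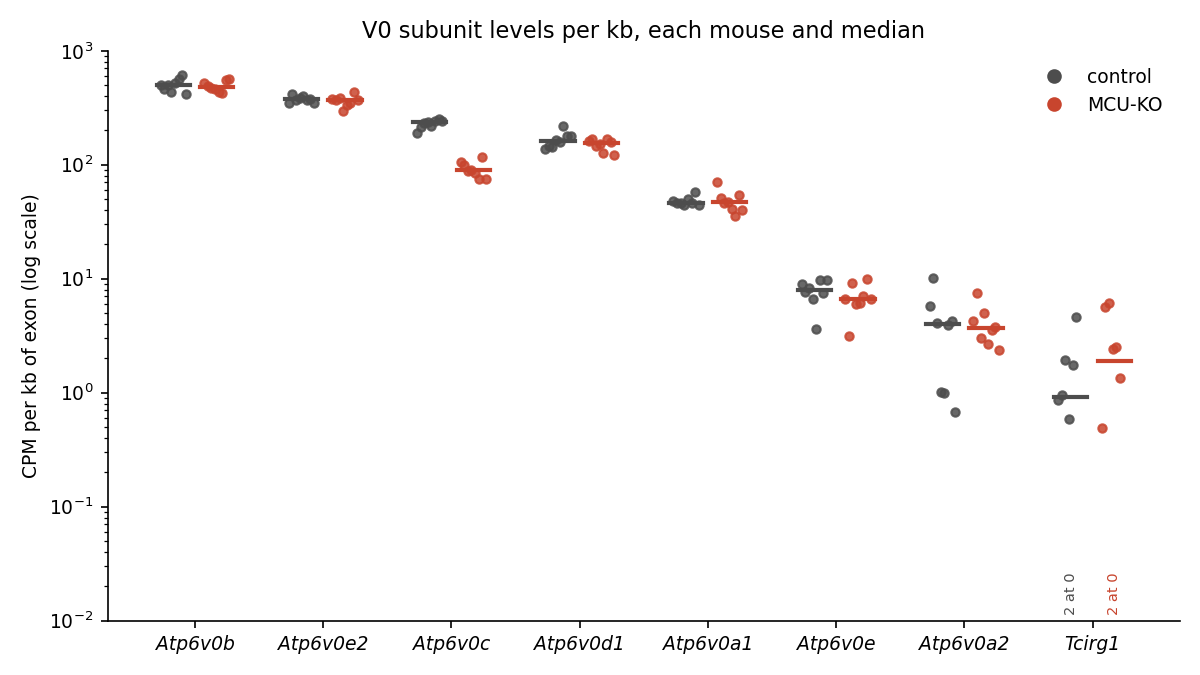
CPM per kb of exon (log axis) for the 8 V0 subunits, ordered by their control mean, with 1 point per mouse, control in grey and MCU-KO in red, and the median of 8 mice as a bar; libraries at 0, drawn as text, were 2 in each genotype for Tcirg1. The control means run from 501.8 CPM per kb for Atp6v0b to 1.34 for Tcirg1, and the MCU-KO median of Atp6v0c lies under that of Atp6v0d1 on this length, an order that turns with the longest protein-coding transcript (means of 263.1 against 164.9 CPM per kb).

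Atp6v0c has processed copies elsewhere in the genome, which bears on what its count holds. The transcript Atp6v0c-201 is 1183 bases long, with its coding sequence at bases 178 to 642. The annotated pseudogene Atp6v0c-ps2 (chromosome 6, 37806086 to 37806550, plus strand) is 465 bases long and identical to the coding sequence in 464 of 465 bases, including 1 uninterrupted run of 354 bases. Atp6v0c-ps1 (chromosome 7, 4412438 to 4412900, plus strand) shares a longest run of 90 bases, at bases 479 to 568 of the transcript. This run is shown because it occurs in all 3 loci, so that a read lying within it has 3 places in the genome. It is printed in lower case, 5′ to 3′ on the strand of the mRNA, from the GENCODE M21 transcripts.
Atp6v0c-201, bases 479 to 568: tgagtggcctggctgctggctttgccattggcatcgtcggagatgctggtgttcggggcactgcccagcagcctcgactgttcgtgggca
Neither pseudogene was among the 25006 genes listed, so there were no counts of them to analyse. Over all annotated transcripts of Atp6v0c, 368 of 3419 stretches of 50 bases (10.8%) also occurred in another gene. Atp6v0c-ps2 held 366 of them, and it matches the coding sequence, so that the share within that sequence is higher. The share was 8.59% in Atp6v0b and 8.35% in Atp6v0a2, in both cases with an antisense gene over their exons (Gm12841 and 4930404A12Rik), and without a stated strand of counting, reads from a gene and its antisense partner cannot be told apart. It was 4.54% in Atp6v0e2, 1.58% in Tcirg1, 0.486% in Atp6v0e and 0% in Atp6v0a1 and Atp6v0d1. The part of shared sequence in the count of Atp6v0c was not tested.

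Many lysosomal genes, V-ATPase genes among them, carry an E-box of the kind bound by TFEB and related factors near their start. The start regions are shown because Atp6v0c and the other subunits can be compared there. RefSeq promoter windows (GRCm38.p6, 250 bases before to 50 after a start) were at hand for 7 of the 8 genes, in 11 windows, and Atp6v0a2 is named only. The letters CACGTG, which read the same on both strands, were found in 3 of the 11 windows, in 3 genes, beside 7.15% of all 32851 windows. The longer TCACGTGA, which contains the former, was found in 2 of the 11 windows, in 2 genes, beside 0.974% of all windows. For Atp6v0a1 and Atp6v0e, the window lay inside the annotated gene, downstream of its 5′ end, which was not searched. In each line below, 40 bases before and 20 bases from the most upstream start among these windows are printed. They run 5′ to 3′ in the direction of transcription, with these motifs in capitals.
Atp6v0c, chr17:24169659-24169718, minus strand: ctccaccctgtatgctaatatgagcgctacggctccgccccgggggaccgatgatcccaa
Atp6v0b, chr4:117887310-117887369, minus strand: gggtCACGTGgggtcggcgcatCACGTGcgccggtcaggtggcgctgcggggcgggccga
Atp6v0d1, chr8:105566045-105566104, minus strand: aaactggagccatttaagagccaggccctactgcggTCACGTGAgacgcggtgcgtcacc
Atp6v0e, chr17:26676356-26676415, plus strand: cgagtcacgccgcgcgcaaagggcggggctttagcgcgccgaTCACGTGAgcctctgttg
Atp6v0e2, chr6:48537529-48537588, plus strand: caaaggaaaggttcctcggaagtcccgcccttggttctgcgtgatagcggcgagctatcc
Atp6v0a1, chr11:101010358-101010417, plus strand: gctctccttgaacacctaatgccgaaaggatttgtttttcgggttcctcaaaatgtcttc
Tcirg1, chr19:3907114-3907173, minus strand: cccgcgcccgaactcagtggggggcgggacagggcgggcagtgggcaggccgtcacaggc
Atp6v0b held CACGTG at 36 and at 18 bases before its start. Atp6v0d1 held it 3 bases before and Atp6v0e 3 bases after the start, each inside the longer motif. The windows of Atp6v0c (3 starts), Atp6v0a1, Atp6v0e2 and Tcirg1 (3 starts) held neither, which says only that these letters are not in these windows.

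The genes around Atp6v0c were examined to see whether its lower count was shared along the chromosome. Of 30 tested genes within 500 kb, 0 were called (edgeR), 12 had a log2 fold change below 0 and 18 above 0, and the median was 0.01. The nearest tested gene on one side, Amdhd2, an enzyme of amino sugar metabolism 0.1 kb away, had a log2 fold change of −0.22 (95% CI −0.76 to 0.33, adjusted p = 1.00, edgeR). The nearest on the other side, Tbc1d24, whose TLDc domain belongs to a family that binds the V-ATPase, lay 5.73 kb away with a log2 fold change of 0.04 (95% CI −0.45 to 0.54, adjusted p = 1.00, edgeR). Before adjustment, p was under 0.05 in 3 of the 30 genes, beside 4.41% of all genes. Rnps1 and Eci1, which lie side by side, were lower, and Npw was higher, with log2 fold changes of −0.69, −0.71 and 1.91; Eci1 and Npw were named after their values were seen. The smallest p was that of Rnps1, an RNA-binding protein of the exon junction complex, 244.9 kb away, with 81.1 ± 11.2 CPM (SD, n = 8) in control and 50.3 ± 11.9 CPM (SD, n = 8) in MCU-KO mice. The standard error of its log2 fold change was 0.17 (adjusted p = 0.157, edgeR).

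**Figure D5:**
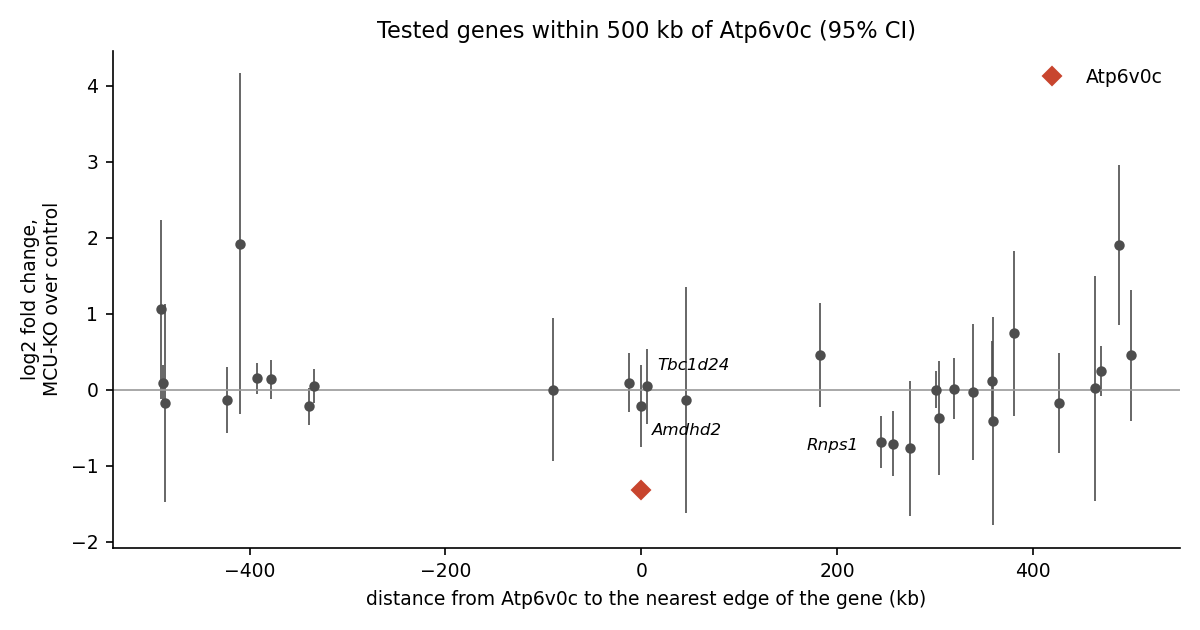
Log2 fold change of MCU-KO over control (vertical axis, 95% confidence interval) for 30 tested genes against their distance in kb from Atp6v0c (horizontal axis, 0 is Atp6v0c, shown as a red diamond without an interval). Amdhd2 and Tbc1d24 beside it lie at −0.22 and 0.04, and Rnps1 at 244.9 kb lies at −0.69.

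The other genes of the pump did not pass the test. The V1 sector hydrolyzes ATP on the cytosolic side. Of its 13 genes, 9 were tested and 0 called (0.178% of all genes were), with 0 at an unadjusted p under 0.05 (4.41% of all genes), and 0 were called with DESeq2 or limma-voom. In a list of this size, 0 is also the count that these shares would give. The log2 fold change was below 0 in 4 and above 0 in 5 of the 9 genes. The values lay between −0.15 and 0.16, with a median of 0.01. The smallest p belonged to Atp6v1e1, a subunit of the peripheral stalks, at 873.5 ± 126.7 CPM in control and 789.4 ± 92.9 CPM in MCU-KO mice (SD, n = 8 each), a log2 fold change of −0.15 (95% CI −0.34 to 0.05, adjusted p = 1.00, edgeR). Of 8 accessory and assembly genes, 7 were tested and 0 called (edgeR), with 0 at an unadjusted p under 0.05, beside the same shares of all genes. The median log2 fold change was −0.12, with 4 values below and 3 above 0. Rnasek, a small membrane protein found with V0, had the smallest p, with 1053 ± 134.7 CPM in control and 930.0 ± 118.1 CPM in MCU-KO mice (SD, n = 8 each) and a log2 fold change of −0.18 (95% CI −0.37 to 0.01, adjusted p = 1.00, edgeR).

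Genes that act on the pump or with it were described in the same way, beside 0.178% of all genes called and 4.41% at an unadjusted p under 0.05. Counts of 0 or 1 in lists of 3 to 13 tested genes are too small to be told from these shares. Of 9 regulators of V0 and V1 association and interactors, 8 were tested and 0 called (edgeR), with 1 at an unadjusted p under 0.05 and a median log2 fold change of 0.12. That gene was Oxr1, a TLDc protein, with 88.0 ± 27.4 CPM in control and 128.9 ± 29.3 CPM in MCU-KO mice (SD, n = 8 each) and a log2 fold change of 0.55 (95% CI 0.15 to 0.95, adjusted p = 0.849, edgeR). Of 14 genes of counter-ion transport and the lysosomal membrane, 13 were tested and 0 called (edgeR), with a median of 0.04. The 1 gene at an unadjusted p under 0.05 was Clcn4, a chloride-proton exchanger, with 229.6 ± 45.9 CPM in control and 181.5 ± 36.9 CPM in MCU-KO mice (SD, n = 8 each) and a log2 fold change of −0.34 (95% CI −0.61 to −0.06, adjusted p = 0.973, edgeR). Of 4 transcription factor genes of the TFEB family, 3 were tested and 0 called (edgeR), with 0 at an unadjusted p under 0.05. The median of 0.50 was the log2 fold change of Tfeb (95% CI −1.33 to 2.33), at 6.66 ± 7.60 CPM in control mice. Tfe3, at 29.8 ± 12.1 CPM in control mice, had a log2 fold change of −0.12. Tfeb and Tfe3 were named after their values were seen. The smallest p was that of Mitf, a low gene at 1.73 ± 2.45 CPM in control and 4.58 ± 3.50 CPM in MCU-KO mice (SD, n = 8 each), with an interval of −0.98 to 3.79 around a log2 fold change of 1.40. Of 6 vesicular transporters driven by the proton gradient, 4 were tested and 0 called (edgeR), with 0 at an unadjusted p under 0.05 and a median of 0.19. Slc18a2, the vesicular monoamine transporter, had the smallest p, with 1695 ± 315.9 CPM in control and 1944 ± 405.0 CPM in MCU-KO mice (SD, n = 8 each) and a log2 fold change of 0.20 (95% CI −0.06 to 0.45, adjusted p = 1.00, edgeR).

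Within genotypes, mice varied in Atp6v0c by less than the distance between the groups, and some genes varied with it. The log2 CPM of each gene was centred on the mean of its genotype and correlated with that of Atp6v0c over the 16 mice, as a description, since all genes of a mouse share its library. Among the V0 subunits, Pearson's r was 0.70 for Atp6v0a1, 0.51 for Atp6v0d1, 0.40 for Atp6v0e2 and 0.31 for Atp6v0b. It was 0.16 for Tcirg1, 0.08 for Atp6v0e and −0.01 for Atp6v0a2, and the median over 9170 other genes with at least 10 CPM was 0.01. Atp6v0a1, Atp6v0d1, Atp6v0e2 and Atp6v0b, which had the higher counts, thus also had higher coefficients than the other 3 subunits. The 5 genes most like Atp6v0c were picked as the highest of 9170 coefficients. Their r is high in part through that choice and was not tested. They were Pkm (r = 0.88) and Eno1 (0.85), both enzymes of glycolysis, Rundc3a (0.85), Oxct1 (0.85) and Mri1 (0.84). Oxct1 takes part in the use of ketone bodies, and Mri1 is an enzyme of methionine salvage. Of the 5 genes, Eno1 was also lower in MCU-KO mice (log2 fold change −0.88, standard error 0.10, adjusted p = 2.1e-05, edgeR). Pkm, Rundc3a and Oxct1 had log2 fold changes of −0.06, −0.01 and −0.02. Mri1 was at −0.58 with a standard error of 0.32 (adjusted p = 1.00, edgeR).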

How the data were processed

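RiboTag RNA-seq libraries of 8 control and 8 MCU-KO mice were compared, grouped by the genotype in their titles. The authors trimmed the reads (the methods name cutadapt, the submitters' processing notes Trim Galore), used STAR for the alignment to mm10 and HTSeq for the counting, and deposited whole-number counts without normalization. Versions, strand and Ensembl release are not given in the sources used here.

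Counts were fitted with edgeR 4.0.16 in R 4.3.3 (filterByExpr, TMM, glmQLFit, glmQLFTest) and p-values were adjusted after Benjamini and Hochberg over 12390 genes, with calls at an adjusted p under 0.05. DESeq2 1.42.0, limma-voom (limma 3.58.1), other normalizations and filters, the mouse number as a block and the omission of each mouse were alternatives. The script was tested on simulated counts. Libraries of the same genotype were checked for duplicates, and the lowest chi-square per degree of freedom of a pair was 82.4, so that none was counted as a repeat. The highest correlation of log2 CPM within a pair was 0.80 in control and 0.85 in MCU-KO mice. Pairs across genotypes were not checked. Ratios between genes used a pseudocount of 1 count and 256 sign patterns (Python 3.11.15, numpy 2.4.6, pandas 2.3.3). Plots used matplotlib 3.10.9. Symbols and positions are from GENCODE M21 (GRCm38).

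The members and lists were chosen with earlier results of these data known. Genes named were the 8 members, Mcu, pseudogenes of Atp6v0c, the gene of smallest p in each list, the nearest tested genes and the smallest p within 500 kb of Atp6v0c, and the 5 genes with the highest correlation with it among those with at least 10 CPM. P-values set a difference, between genotypes or between genes, against the spread between mice. The limit of 3 counts covers counting error alone, because reads without a molecular identifier can be copies of 1 molecule.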

Additional observations from a re-analysis of the deposited data

Results flagged for a closer look

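Of 16 groups of 8 mice examined (8 genes in 2 genotypes), 2 held a mouse far from the others by Dixon's criterion, which flags about 1 in 20 groups by chance. Control mouse 7 had 377.2 CPM of Atp6v0a1, above the other control mice. Control mouse 8 had 21.3 CPM of Tcirg1, above the other control mice.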

How the results depend on the processing

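Under the 23 alternatives to the genotype fit, 0 of the 7 other V0 subunits and 0 genes of the pathway lists were called. The log2 fold change of Atp6v0c stayed between −1.37 and −1.27. That of Atp6v0a1, close to 0, changed sign with limma-voom (−0.0115) and with the mouse number as a replicate block (−0.0183), and ranged from −0.0889 to 0.0632 with 1 mouse left out. With 1 mouse left out, the ranges were −0.14 to 0.44 for Atp6v0a2, −0.0638 to 0.0144 for Atp6v0b, −0.18 to −0.08 for Atp6v0d1 and −0.29 to −0.08 for Atp6v0e. Atp6v0a2 was at 0.52 with limma-voom and 0.45 with the replicate block, against 0.05. Tcirg1, at 0.79, was at 1.63 with the replicate block, 1.40 without control mouse 8, 0.45 without MCU-KO mouse 2 and 0.40 without MCU-KO mouse 3. Mitf, at 1.40, was at 3.25 with limma-voom, 3.34 with the replicate block and 2.18 without control mouse 6. Over the whole table, DESeq2 called 90 genes and the replicate block 14, against 22, and the omission of 1 mouse left 18 to 24. Same-numbered mice did not deviate together (correlations from −0.06 to 0.03). This gave no sign that the numbers pair them, but a weak pairing could be missed this way. Tcirg1 and Mitf gave no value with at least 10 counts in every library. With the length of the longest protein-coding transcript, an alternative chosen after seeing the data, the log2 ratio of Atp6v0e2 to Atp6v0c was −0.38 in place of 0.72. Without control mouse 8, Atp6v0a2 and Tcirg1 differed by 3.47 on the log2 scale, a value that rests in part on the pseudocount in control mice 1 and 5. Adding counts of the Atp6v0c pseudogenes could not be run, because neither was among the genes listed. Tcirg1, Atp6v0a2 and Atp6v0e, the 3 members with the fewest counts, had the widest intervals, and moderate changes in them were not detectable here.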
